A study of Mus musculus with 72 samples.

Results

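Slc22 genes encode carriers for organic anions, organic cations and carnitine. The 8 genes described here are Slc22a5, Slc22a7, Slc22a18, Slc22a23, Slc22a26, Slc22a27, Slc22a28 and Slc22a30. They were chosen by name, as every probe of the count table with 1 of these symbols, which gave 12 of the 30146 probes and 8 of the 21400 gene symbols. Another 18 Slc22a genes with 23 probes are in the same table. The samples were livers of female B6C3F1 mice, a hybrid laboratory strain, aged 9 to 11 weeks when the study began. Dosed animals drank water with tertiary butyl alcohol (TBA) for 14 or 28 d, at a concentration of 10, 20 or 40 mg/mL, and controls had 0 mg/mL over the same time. Each of the 8 groups had 9 singly housed animals, with 1 library per animal from sections of formalin-fixed, paraffin-embedded tissue. TempO-Seq, the assay used, ligates a pair of detector oligos on each targeted transcript and counts the ligated products, so a value is a count per probe.

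Carriers of the SLC22 family sit in cell membranes and move charged or zwitterionic molecules into or out of the cell. In liver, such carriers take up drugs, drug conjugates, bile constituents and metabolites from the blood at the sinusoidal face of the hepatocyte, the side from which most of these compounds are cleared. SLC22A5, also called OCTN2, brings in carnitine together with sodium, and carnitine is needed to carry long-chain fatty acids into mitochondria.

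The 71 libraries kept held 7765545 to 12682075 counts. In the 40 mg/mL group at 14 d, replicate 5 held 10796 counts and was left out, so that group has n = 8 throughout and every other group n = 9. The scaling factor that TMM normalisation gave a library, which is high where a few abundant transcripts take a smaller share of the counts, was 0.978 to 1.58 in the animals given 40 mg/mL for 14 d and 0.847 to 0.961 in their controls, without overlap. The 20 most abundant features took 8.18 to 17.6% of the counts in these dosed animals and 20.2 to 23.2% in these controls. Over the 7 hepatocyte marker genes, of which none was at 0, the summed level was 10198 to 38320 CPM (counts scaled to a common library size with TMM) in the animals given 40 mg/mL for 14 d and 37827 to 54066 CPM in controls. Of these markers, 4 of 7 passed the test as lower in that comparison (Serpina1a, Apoa1, Ttr and Alb, the last chosen after its value was seen), with a median log2 change of -0.64. Over all features 3.68% passed as lower. The other 3, named after their values were seen, did not pass, with log2 changes of -0.52 (Hpd), -0.41 (Cps1) and 0.67 (Tat). Apoa1 alone averaged 28416 CPM in controls, so it weighs most in the sum. The marker calls fell to 1 with the scaling factor as a covariate (median -0.11), where 3.26% of all features were called. Without the libraries with scaling factors of 1.3 or above they fell to 0 (median -0.17), where 0.842% were called. The part of these shifts in the results below was not tested apart from the settings given with them. Because the scaling factors of these groups do not overlap, the covariate cannot fully separate scaling from dose in that comparison. In a bulk sample, fewer cells of a type and less RNA per cell cannot be told apart.

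Slc22a26, Slc22a27, Slc22a28, Slc22a29 and Slc22a30 follow each other on mouse chromosome 19 in RefSeq's gene order for GRCm38.p6, with 5 pseudogenes and 1 long noncoding RNA but no other protein-coding gene between the first and the last. They are near copies in part. In GENCODE M21 transcripts, 53.9% of the 1955 windows of 50 bases in Slc22a28, 30.5% of 2103 in Slc22a27 and 35.5% of 2549 in Slc22a30 occur letter for letter in a transcript of another Slc22a gene. For Slc22a5 the share was 27.1% of 3013, shared with Slc22a4 and Slc22a21. Slc22a7, Slc22a18, Slc22a23 and Slc22a26 shared 0 windows with another Slc22a gene. Counted over genes of any kind, 5.9% of 2805 windows in Slc22a26 occur in 1 other gene. For Slc22a30 that share was 36.1%, over 251 other genes. The files give no probe sequences, so a probe of Slc22a5, Slc22a27, Slc22a28 or Slc22a30 may also count a relative. A probe of Slc22a26 may count that other gene. The values of these genes are uncertain to that extent. Slc22a29 itself was near absent, with 0 counts in 62 of 71 libraries and no more than 6 in any.

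The likeness of Slc22a28 and Slc22a30 extends to their promoters, which are shown because the probe of Slc22a28 passed the test with TBA and those of Slc22a30 did not. RefSeq promoters (GRCm38.p6, 250 bases before to 50 after the gene's start, written 5′ to 3′) were found for 7 of the 8 genes. Those printed here are on the minus strand. The promoter of Slc22a28 lies at chr19:8131933-8132232 and that of Slc22a30 at chr19:8405056-8405355. Over 294 aligned bases, 288 are identical (98.0%), and capitals mark the 6 positions that differ.
Slc22a28: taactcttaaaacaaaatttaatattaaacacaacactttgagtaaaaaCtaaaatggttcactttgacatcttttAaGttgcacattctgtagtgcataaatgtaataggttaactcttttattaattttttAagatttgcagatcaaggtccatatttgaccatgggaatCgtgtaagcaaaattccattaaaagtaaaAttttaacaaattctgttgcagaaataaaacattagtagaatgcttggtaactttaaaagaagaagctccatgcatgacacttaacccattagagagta
Slc22a30: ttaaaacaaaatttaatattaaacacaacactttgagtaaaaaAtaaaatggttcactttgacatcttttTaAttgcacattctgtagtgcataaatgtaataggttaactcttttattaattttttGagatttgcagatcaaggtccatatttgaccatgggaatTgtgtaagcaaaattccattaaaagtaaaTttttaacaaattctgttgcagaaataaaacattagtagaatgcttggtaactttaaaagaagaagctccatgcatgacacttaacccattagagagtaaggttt
The promoter of Slc22a27, at chr19:7965978-7966277, is unlike both, with 49.3% of 290 aligned bases identical to Slc22a28 and 49.2% of 309 to Slc22a30.
Slc22a27: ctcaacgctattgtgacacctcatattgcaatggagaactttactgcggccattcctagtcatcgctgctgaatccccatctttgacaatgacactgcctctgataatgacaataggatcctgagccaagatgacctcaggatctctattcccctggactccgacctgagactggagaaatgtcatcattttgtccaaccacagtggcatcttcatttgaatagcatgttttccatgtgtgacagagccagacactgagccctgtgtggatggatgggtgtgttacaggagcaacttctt
The letters TTCNNNGAA, to which STAT5 binds, were searched on both strands. STAT5 carries the growth hormone signal that sets many sex differences of mouse liver. Among the 7 promoters they occur in that of Slc22a26 only, 1 time, and they occur in 8.3% of all 32851 RefSeq mouse promoters of the same length. A match is a description of the letters in this window and not a binding site.

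In animals given 40 mg/mL TBA for 14 d, 3 of the 8 Slc22 genes passed the test (edgeR quasi-likelihood, Benjamini-Hochberg adjusted p under 0.05 over 17050 features), and all 3 were lower: Slc22a28, Slc22a7 and Slc22a18. Over all features, 6.52% passed in this comparison, 3.68% as lower and 2.84% as higher. The median log2 change of the 8 genes was -0.28, beside 0.06 over all features. At 28 d the Slc22a28 probe alone passed, at 20 mg/mL, where 0.158% of all features passed and 0.0938% passed as lower, and the adjusted p lay at the threshold. The other 5 genes did not pass at any dose or time.

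**Figure D1:**
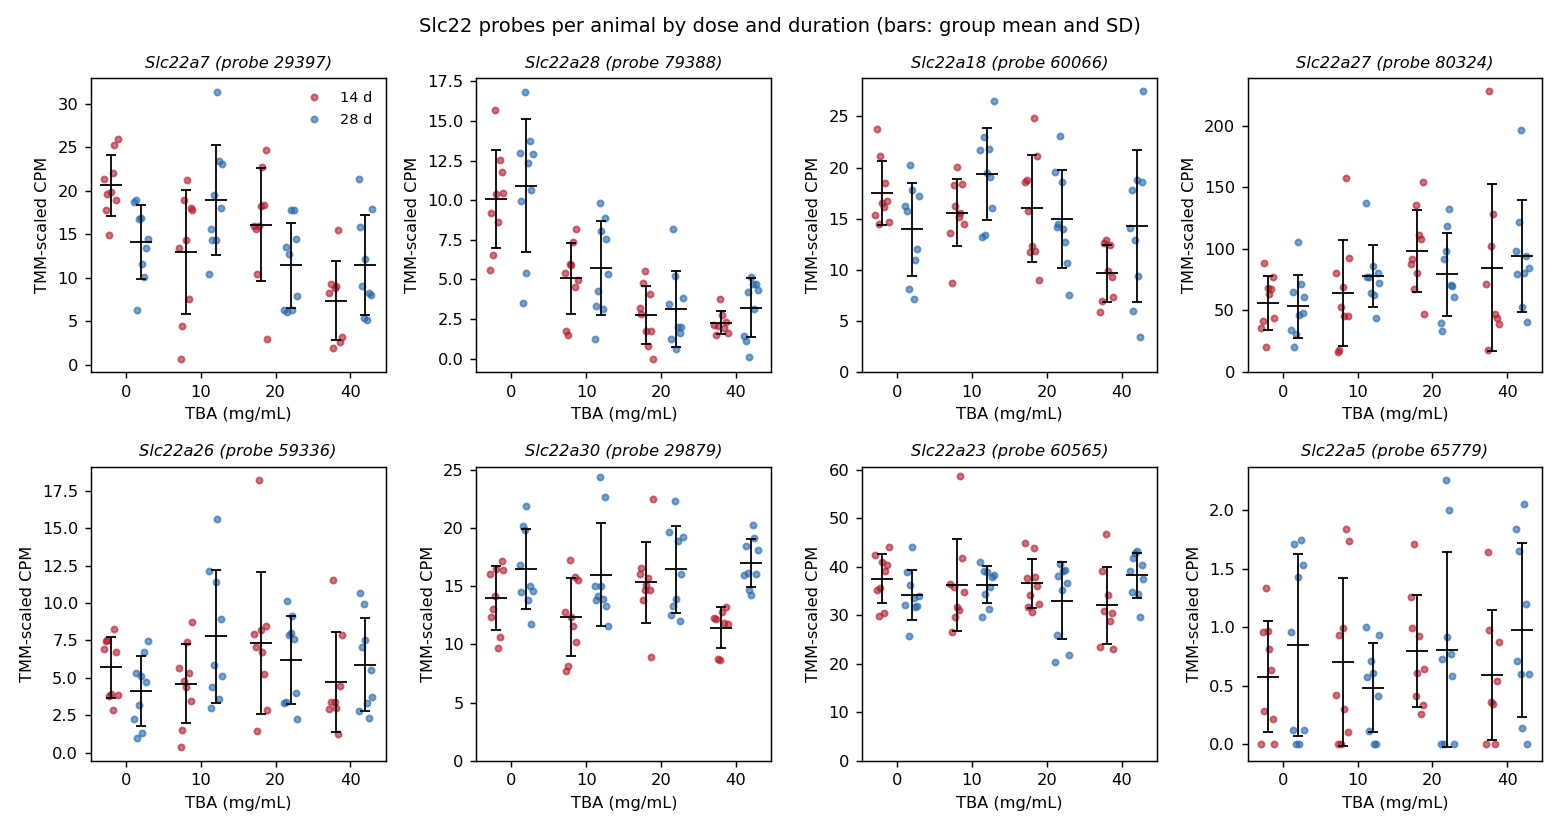
TMM-scaled CPM (vertical axes, linear) of the probe with the highest mean count of each gene against TBA concentration in mg/mL (horizontal axes), with 1 point per animal, red for 14 d and blue for 28 d, and black bars for the group mean and SD (n = 9, and n = 8 at 40 mg/mL for 14 d). Slc22a28 averaged 2.26 CPM at 40 mg/mL for 14 d, against 10.1 CPM in controls, with lower means than the controls at every dose and at both durations.

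Slc22a28, one of the rodent carriers grouped with the organic anion transporters on chromosome 19, had the widest difference. At 14 d its lowest, median and highest values were 5.58, 10.4 and 15.7 CPM in controls, 1.52, 5.42 and 8.17 CPM at 10 mg/mL, 0, 2.82 and 5.55 CPM at 20 mg/mL, and 1.47, 2.09 and 3.76 CPM at 40 mg/mL. All 8 animals at 40 mg/mL and all 9 at 20 mg/mL lay below the lowest control, a pattern that 0.587% and 0.0411% of all features showed. The single 0 was replicate 9 at 20 mg/mL, where a count of 0 allows up to 0.213 CPM (3 counts, counting error only).

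The probe was 4.46-fold lower at 40 mg/mL for 14 d (log2 change -2.16, SE 0.44, adjusted p = 0.00114 in edgeR), with a mean of 2.26 ± 0.72 CPM in dosed animals (SD, n = 8) and 10.1 ± 3.09 CPM in controls (SD, n = 9). Without the libraries whose scaling factor was 1.3 or above (4 of the 8 dosed animals), the log2 change was -1.97 and the adjusted p 0.107. At 20 mg/mL the mean was 2.75 ± 1.84 CPM, 3.70-fold lower than in controls (log2 change -1.89, SE 0.42), and the adjusted p of 0.0508 missed the threshold. At 10 mg/mL the mean was 5.07 ± 2.26 CPM and the log2 change -0.99 (SE 0.41, adjusted p = 0.999 in edgeR).

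The trend over doses at 14 d, in log2 change per 10 mg/mL, passed for the same 3 genes (7.99% of all features passed, 4.34% as lower). Without the libraries with scaling factors of 1.3 or above, 0 of the 8 slopes passed, and calls over all features dropped to 121, against 1362 with them. For Slc22a28 the slope was -0.52 (SE 0.11, adjusted p = 0.00107 in edgeR). Neither comparison of neighbouring doses at 14 d passed for Slc22a28. For 40 against 20 mg/mL the log2 change was -0.27 (95% interval -1.13 to 0.59, adjusted p = 0.901 in edgeR). For 20 against 10 mg/mL it was -0.89 (95% interval -1.72 to -0.07, adjusted p = 0.876), and this unadjusted interval leaves out 0. In these comparisons 0.862% and 0.0117% of all features passed. The 40 mg/mL group was not set against the 10 mg/mL group.

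At 28 d the medians of Slc22a28 were again below the controls at each dose, with 20 mg/mL lowest. The lowest, median and highest values were 3.51, 12.4 and 16.8 CPM in controls, 1.22, 5.35 and 9.82 CPM at 10 mg/mL, 0.644, 2.03 and 8.20 CPM at 20 mg/mL, and 0.0997, 4.19 and 5.13 CPM at 40 mg/mL. Of the dosed animals, 3 of 9 at 10 mg/mL, 6 of 9 at 20 mg/mL and 4 of 9 at 40 mg/mL lay below the lowest control, so the groups overlapped at every dose.

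The mean was 3.14 ± 2.38 CPM at 20 mg/mL for 28 d, 3.45-fold lower than the 10.9 ± 4.18 CPM of controls (log2 change -1.79, SE 0.41, adjusted p = 0.0497 in edgeR, n = 9 each). Leaving out 1 library at a time gave an adjusted p from 0.0106 to 0.125 and ended the call for 15 of 18 libraries. At 40 mg/mL the mean was 3.21 ± 1.86 CPM (log2 change -1.77, SE 0.42), and the adjusted p was 0.106. In that comparison 0.00587% of all features passed, and 0% as lower. Of the 8 genes 2 had an unadjusted p under 0.05, Slc22a28 and Slc22a27, beside 1078 of all 17050 features. DESeq2 and limma each called 1 of the 8 there, Slc22a28, with adjusted p-values of 0.0106 and 0.00139. The effect of 40 mg/mL at 28 d differed from that at 14 d by 0.39 on the log2 scale (95% interval -0.77 to 1.54, adjusted p = 0.982 in edgeR).

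**Figure D2:**
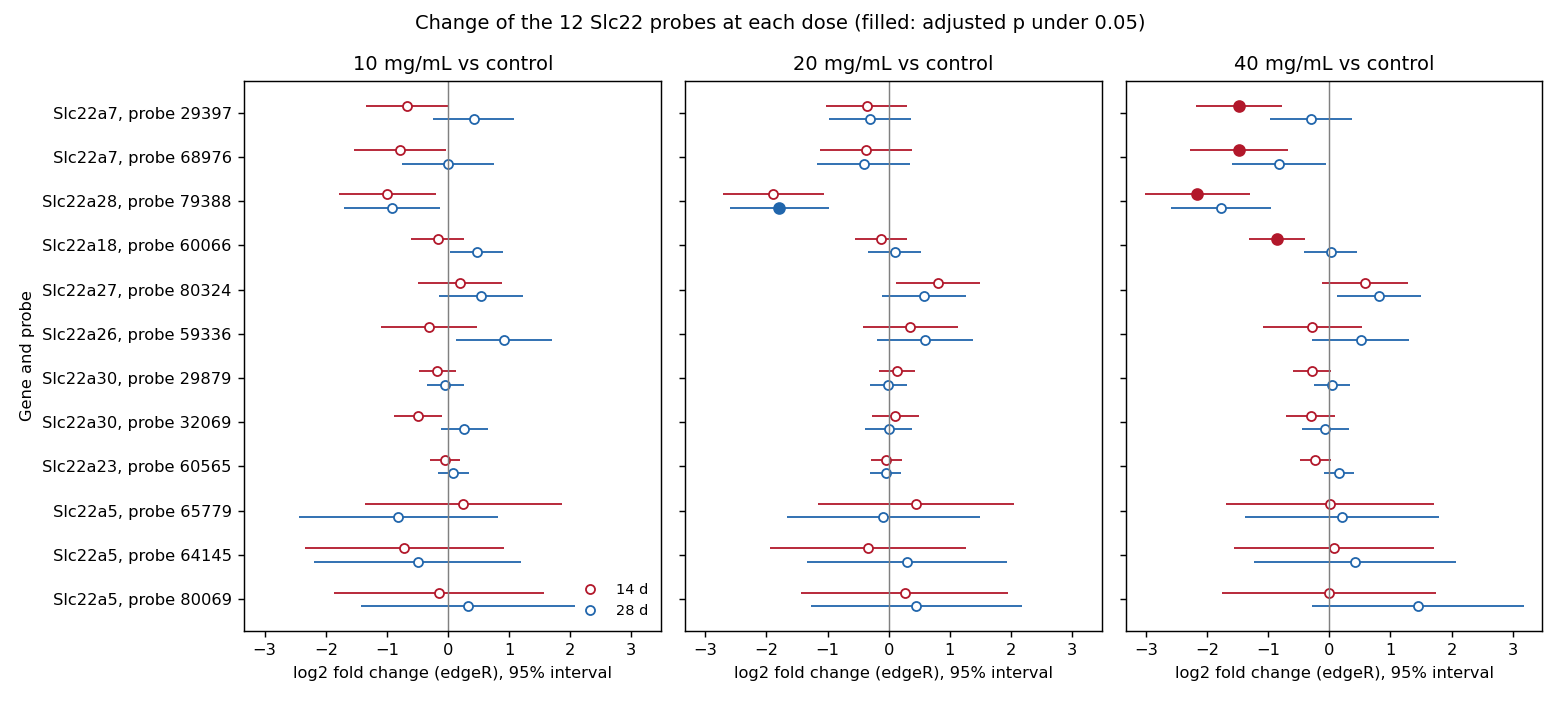
log2 fold change against the control of the same duration (horizontal axes, edgeR, bars for the 95% interval) of all 12 probes (rows) at 10, 20 and 40 mg/mL (panels), red for 14 d and blue for 28 d, with filled points where the adjusted p was under 0.05. The Slc22a28 probe is left of 0 in all 6 comparisons, and both Slc22a7 probes and the Slc22a18 probe are filled at 40 mg/mL for 14 d.

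Slc22a7, also called OAT2, is an organic anion transporter of the hepatocyte. Both of its probes passed at 40 mg/mL for 14 d. Probe Slc22a7_29397 had lowest, median and highest values of 1.96, 8.58 and 15.5 CPM at 40 mg/mL for 14 d, against 14.9, 19.9 and 26.0 CPM in controls. Probe Slc22a7_68976 had 0, 5.79 and 12.8 CPM at 40 mg/mL, against 12.5, 16.7 and 22.0 CPM in controls. With either probe, 7 of 8 dosed animals lay below every control and 1 overlapped.

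Probe Slc22a7_29397 was 2.79-fold lower at 40 mg/mL for 14 d (log2 change -1.48, SE 0.36, adjusted p = 0.00621 in edgeR), with means of 7.36 ± 4.54 CPM in dosed animals (SD, n = 8) and 20.6 ± 3.48 CPM in controls (SD, n = 9). Probe Slc22a7_68976 was 2.78-fold lower (log2 change -1.47, SE 0.41, adjusted p = 0.0177). When the scaling factor (log2) entered the fit as a covariate, the changes were -1.005 (adjusted p = 0.208) and -1.14 (adjusted p = 0.215), so that neither probe passed. Without the libraries with scaling factors of 1.3 or above, probe Slc22a7_29397 still passed, with a log2 change of -1.84 (adjusted p = 0.0373).

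Values of Slc22a7 did not follow dose step by step. At 14 d, probe Slc22a7_29397 averaged 20.6 ± 3.48 CPM in controls, 13.0 ± 7.14 CPM at 10 mg/mL, 16.1 ± 6.44 CPM at 20 mg/mL and 7.36 ± 4.54 CPM at 40 mg/mL, and its slope passed (-0.33 per 10 mg/mL, SE 0.09, adjusted p = 0.0102 in edgeR). At 28 d it averaged 14.1 ± 4.24, 18.9 ± 6.30, 11.5 ± 4.85 and 11.5 ± 5.75 CPM in the same order of dose, with no call. Probe Slc22a7_68976 averaged 13.3 ± 3.03, 13.3 ± 4.45, 10.0 ± 3.67 and 7.49 ± 4.78 CPM there. At 40 mg/mL for 28 d its log2 change was -0.83 (SE 0.39, unadjusted p = 0.0392, adjusted p = 0.776 in edgeR), with 6 of 9 animals below every control, against -0.30 for Slc22a7_29397 with 2 of 9. The 28 d controls ranged from 6.28 to 18.9 CPM, against 14.9 to 26.0 CPM in the 14 d controls, and this difference did not pass (log2 change -0.55, SE 0.34, adjusted p = 0.999 in edgeR). The effect of 40 mg/mL differed between 28 d and 14 d by 1.17 for probe Slc22a7_29397 (95% interval 0.21 to 2.14, adjusted p = 0.656) and by 0.65 for probe Slc22a7_68976 (95% interval -0.45 to 1.75, adjusted p = 0.957).

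**Figure D3:**
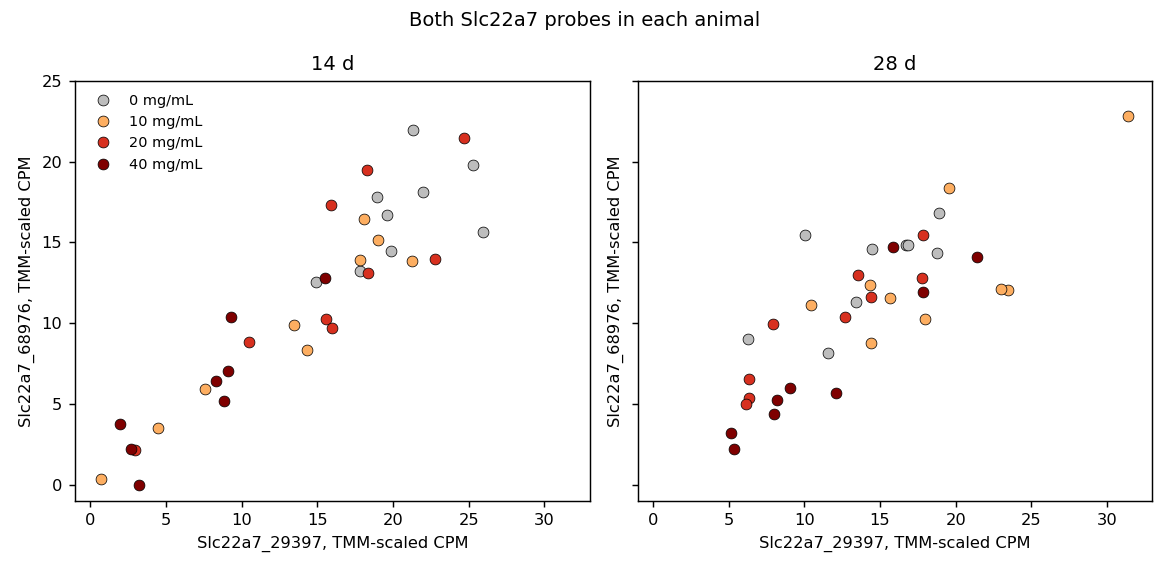
TMM-scaled CPM of probe Slc22a7_68976 (vertical axis) against probe Slc22a7_29397 (horizontal axis), 1 point per animal, at 14 d (left) and 28 d (right), coloured from grey for controls to dark red for 40 mg/mL. The probes rank the 71 animals alike (Spearman rho 0.86), and 7 of the 8 animals at 40 mg/mL for 14 d lie below all 14 d controls on either axis.

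Both Slc22a7 probes carry the same gene symbol and were counted in the same libraries, so their agreement is no second set of animals. Which transcripts of the gene each probe targets is not given in the files. The probes of the other genes with several agreed less across the 71 libraries: Spearman rho was 0.47 for the pair of Slc22a30 probes and 0.11 to 0.15 for the 3 Slc22a5 pairs. Library depth and scaling are shared by all of these points.

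Slc22a18, known by the older names Orctl2 and Impt1, lies in an imprinted region of mouse chromosome 7, and what it carries in liver is not settled. Its lowest, median and highest values were 5.87, 9.61 and 12.9 CPM at 40 mg/mL for 14 d, against 14.4, 16.6 and 23.8 CPM in controls. All 8 dosed animals lay below every control, as 0.587% of all features did, so the groups did not overlap.

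The Slc22a18 probe was 1.81-fold lower in that comparison (log2 change -0.86, SE 0.23, adjusted p = 0.0135 in edgeR), with means of 9.65 ± 2.79 CPM in dosed animals (SD, n = 8) and 17.5 ± 3.14 CPM in controls (SD, n = 9). The call was lost in limma (adjusted p = 0.0591), without dosed replicates 1 and 7 (0.0730), without the libraries with scaling factors of 1.3 or above (0.197) and with the scaling factor as a covariate (log2 change -0.38, adjusted p = 0.448). Its means at 10 and 20 mg/mL for 14 d were 15.6 ± 3.30 and 16.0 ± 5.22 CPM, within the spread of the controls. At 28 d the means were 14.0 ± 4.56, 19.4 ± 4.46, 15.0 ± 4.75 and 14.3 ± 7.41 CPM from 0 to 40 mg/mL, and none passed. Between durations the effect of 40 mg/mL differed by 0.88 (95% interval 0.26 to 1.51), which had an unadjusted p of 0.00719 and an adjusted p of 0.5004 in edgeR.

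**Figure D4:**
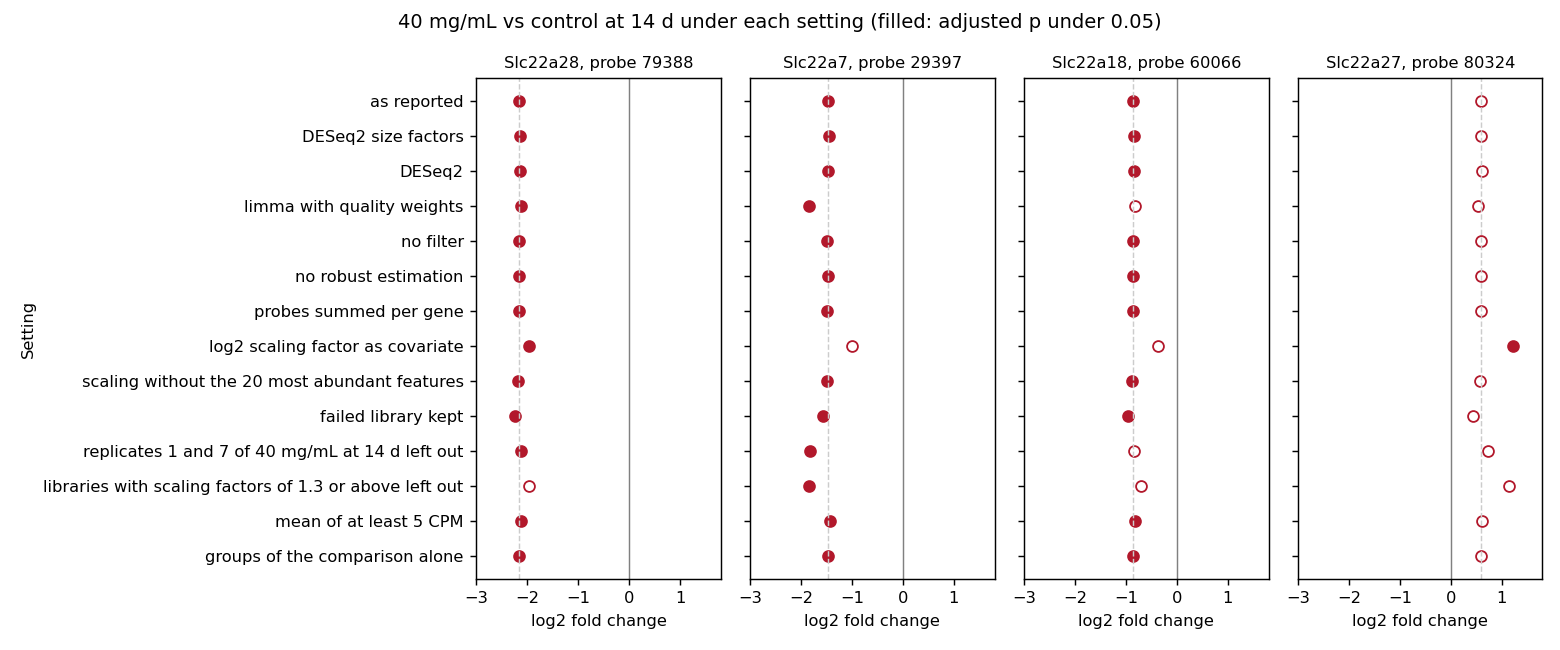
log2 fold change at 40 mg/mL against control at 14 d (horizontal axes) of 4 probes (panels) under the reported fit and each of 13 other settings (rows), filled where the adjusted p was under 0.05, with the reported value as a dashed line. Slc22a28 stays between -2.23 and -1.96 in all of them, and Slc22a7, Slc22a18 and Slc22a27 move with the scaling covariate.

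Slc22a27, listed by RefSeq also as Oat9, is the neighbour of Slc22a28 on chromosome 19 and had higher means than controls at every dose and time, with no call. At 14 d the means were 56.2 ± 22.1 CPM in controls and 64.2 ± 43.3, 98.1 ± 33.2 and 84.7 ± 68.0 CPM at 10, 20 and 40 mg/mL. At 28 d they were 53.5 ± 25.6, 77.9 ± 25.5, 79.4 ± 33.7 and 94.3 ± 45.1 CPM in the same order of dose. The groups overlapped in each comparison, and at 40 mg/mL the animals ran from 18.2 to 228 CPM at 14 d, against 20.4 to 88.7 CPM in controls.

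The log2 change of Slc22a27 was 0.80 at 20 mg/mL for 14 d (SE 0.35, unadjusted p = 0.0253, adjusted p = 0.704 in edgeR) and 0.82 at 40 mg/mL for 28 d (SE 0.35, unadjusted p = 0.0227, adjusted p = 0.698). For the animals on 40 mg/mL over 14 d it was 0.59 (95% interval -0.11 to 1.29, adjusted p = 0.391). With the scaling factor as a covariate that value became 1.22 and passed (adjusted p = 0.0424 in edgeR). The scaling factors of these dosed animals and their controls did not overlap, so this setting cannot fully separate scaling from dose. It left 2 of the 8 genes called, Slc22a27 as higher and Slc22a28 as lower. Under it 3.26% of all features were called, against 6.52% without the covariate.

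Slc22a30, whose promoter nearly matches that of Slc22a28, showed no change that passed with either probe. Probe Slc22a30_29879 had lowest, median and highest values of 8.68, 12.0 and 13.2 CPM at 40 mg/mL for 14 d, against 9.73, 14.2 and 17.2 CPM in controls. Its log2 change was -0.29 (95% interval -0.60 to 0.02, adjusted p = 0.317 in edgeR), and that of probe Slc22a30_32069 was -0.30 (95% interval -0.70 to 0.09, adjusted p = 0.447). Both intervals lie above the whole 95% interval of Slc22a28 in that comparison, which was -3.02 to -1.29, although the difference between these probes was not itself tested. With the scaling factor as a covariate, probe Slc22a30_32069 passed as lower (log2 change -0.77, adjusted p = 0.0269). At 28 d the 3 dose means of probe Slc22a30_29879 lay between 16.0 and 17.0 CPM, beside 16.5 CPM in controls.

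Slc22a26, the first of the 5 neighbours, was variable and did not pass at any dose. Its means at 14 d were 5.71 ± 2.05 CPM in controls and 4.62 ± 2.62, 7.33 ± 4.74 and 4.72 ± 3.35 CPM at 10, 20 and 40 mg/mL. At 28 d they were 4.12 ± 2.32 CPM in controls and 7.77 ± 4.44, 6.19 ± 2.92 and 5.89 ± 3.10 CPM. The log2 change at 40 mg/mL was -0.28 at 14 d and 0.51 at 28 d, with 95% intervals of -1.08 to 0.53 and -0.28 to 1.31, and the 14 d value became 0.91 with the scaling factor as a covariate (adjusted p = 0.171 in edgeR).

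Across the 71 libraries, the 4 measured neighbours did not rank the animals alike. Spearman rho was 0.50 between Slc22a26 and Slc22a27, -0.26 between Slc22a27 and Slc22a28, 0.10 between Slc22a28 and Slc22a30 (probe Slc22a30_29879) and -0.03 between Slc22a26 and Slc22a28. These are descriptions over animals of all doses that share depth and scaling.

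Slc22a5, the carnitine carrier, was near the limit of detection with each of its 3 probes. Their means over the 71 libraries were 0.573 to 0.725 CPM, with 0 counts in 14 to 16 libraries and at most 36 counts in any, where a count of 0 allows up to 0.172 to 0.488 CPM. The log2 changes at 40 mg/mL for 14 d were 0.01, 0.07 and -0.01 for probes Slc22a5_65779, Slc22a5_64145 and Slc22a5_80069, and the 95% interval of the first was -1.69 to 1.72, so that changes of this size were not detectable at this depth. Without dosed replicate 2 the value of Slc22a5_80069 was -1.72. At 28 d and 40 mg/mL probe Slc22a5_80069 averaged 1.04 ± 0.51 CPM, against 0.372 ± 0.365 CPM in controls (log2 change 1.45, SE 0.88, adjusted p = 0.859 in edgeR), and the other probes had changes of 0.21 and 0.42.

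Of 8 enzymes and carriers of the carnitine system, all tested, 1 passed as higher at 40 mg/mL for 14 d and none as lower, with a median log2 change of -0.14. It was Crat, the carnitine acetyltransferase, at 16.8 CPM in dosed animals against 6.27 CPM in controls (log2 change 1.42, SE 0.34, adjusted p = 0.00559 in edgeR), and all 8 dosed animals lay above every control, as 0.0997% of all features did. With the scaling factor as a covariate the change of Crat was 0.56 (adjusted p = 0.368). Over all features, 2.84% passed as higher at 40 mg/mL for 14 d in the reported fit.

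Slc22a23, a family member whose cargo is not known, was the steadiest gene of the 8. Its mean was 32.1 ± 7.96 CPM at 40 mg/mL for 14 d, against 37.6 ± 5.11 CPM in controls (log2 change -0.23, 95% interval -0.48 to 0.03, adjusted p = 0.360 in edgeR). At 28 d it was 38.2 ± 4.59 CPM at 40 mg/mL, against 34.3 ± 5.17 CPM in controls (log2 change 0.16, 95% interval -0.09 to 0.41). The biological coefficient of variation that edgeR gave was 0.19 for Slc22a23, beside 0.57 for Slc22a28 and 0.40 in common over all features.

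At 10 mg/mL, 0 of the 8 genes passed at 14 d or at 28 d, where 0% of all features did. In edgeR, 1 gene had an unadjusted p under 0.05 at 14 d (Slc22a28) and 3 had one at 28 d (Slc22a18, Slc22a26 and Slc22a28), beside 736 and 707 of all 17050 features. Counted over all 12 probes there were 3 at each time, and at 14 d these included Slc22a30_32069 (unadjusted p = 0.0149, 7 of 9 animals below every control) and Slc22a7_68976 (unadjusted p = 0.0467). DESeq2 and limma called 0 of the 8 genes at either time. At 20 mg/mL for 14 d, 0 of 8 passed (0.0352% of all features) and 2 had an unadjusted p under 0.05 (Slc22a27 and Slc22a28), beside 1032 of all 17050 features, while DESeq2 and limma each called Slc22a28. Over doses at 28 d, 0 of 8 slopes passed in edgeR (0.129% of all features), with Slc22a28 at -0.43 per 10 mg/mL (SE 0.10, adjusted p = 0.0566), and limma called 1 and DESeq2 0. For the 3 tests of a dose effect between durations and for 28 d against 14 d controls, 0 of 8 genes and 0% of all features passed in edgeR. There DESeq2 and limma also called 0 of the 8, and 3, 0, 3 and 0 of the 8 genes had an unadjusted p under 0.05 at 10, 20 and 40 mg/mL and in the controls, beside 732, 537, 1081 and 516 of all 17050 features.

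Outside the 8 genes no tested member of the family passed at 40 mg/mL for 14 d. Of 18 other Slc22 genes listed, 17 are in the table and 6 were tested, and 0 passed at 40 mg/mL for 14 d (0 also in the other 11 comparisons), with a median log2 change of -0.05. Slc22a13b, in the table and outside that list, was tested too and did not pass at 40 mg/mL for 14 d (log2 change 0.47, adjusted p = 0.697 in edgeR).

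Among 15 tested carriers of organic ions and bile acids from other families, 4 passed as lower and 1 as higher at 40 mg/mL for 14 d, with a median log2 change of -0.43. The prostaglandin transporter Slco2a1 averaged 50.7 CPM in dosed animals, against 108 CPM in controls (log2 change -1.09, SE 0.24, adjusted p = 0.00245 in edgeR). The bile salt export pump Abcb11 was lower as well (log2 change -0.65, SE 0.17, adjusted p = 0.0114), as were Slco1a1 (log2 change -2.10, adjusted p = 0.0196) and the bile acid uptake carrier Slc10a1 (log2 change -0.53, adjusted p = 0.0369), both chosen after their values were seen. Abcc4, an efflux pump for organic anions, was higher at 2.60 CPM in dosed animals, against 0.435 CPM in controls (log2 change 2.57, SE 0.70, adjusted p = 0.0151). That control mean is near the limit of detection, where a count of 0 allows up to 0.172 to 0.488 CPM by library. Only 4 of the 8 dosed animals lay above every control for Abcc4. With the scaling factor as a covariate 0 of the 15 passed and their median turned to 0.15, and without the libraries with scaling factors of 1.3 or above 0 passed. Calls over all features dropped as well, to 3.26% and 0.842% under these settings, against 6.52% in the reported fit.

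Sex-biased liver genes were counted as well, since all animals were female. Over all features, 3.68% passed as lower and 2.84% as higher at 40 mg/mL for 14 d. Of 10 tested genes that are higher in male liver, 6 passed as lower at 40 mg/mL for 14 d and none as higher (median log2 change -1.72). Among them were Cyp7b1 (log2 change -1.68, SE 0.33, adjusted p = 0.000740 in edgeR), Serpina1e (-1.08, SE 0.22, adjusted p = 0.000859) and Mup20 (-1.56, SE 0.31, adjusted p = 0.000939). Of 13 tested genes that are higher in female liver, 1 passed as higher (Cyp17a1, log2 change 1.21, adjusted p = 0.0264) and 1 as lower (Cyp3a41a, log2 change -1.04, adjusted p = 0.0457). Their median log2 change was 0.21. With the scaling factor as a covariate, 1 of the 10 genes higher in male liver passed as lower (median -1.09). There 2 of the 13 genes higher in female liver passed as higher (median 0.28). Under this setting 3.26% of all features were called. Without the libraries with scaling factors of 1.3 or above, 1 of the 10 passed as lower (median -1.58) and 1 of the 13 as higher (median 0.66). There 0.842% of all features were called. Slco1a1 stands in this list and in that of the carriers.

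The features that ranked the 71 libraries most like each gene were taken among 9968 features with a mean of at least 5 CPM. For Slc22a28 they were Gm10681 (Spearman rho 0.82), a Serpina1e probe (0.76) and Ces3a, a carboxylesterase (0.74). For Slc22a7 they were 1300017J02Rik, the complement gene C8g and Lect2 (0.76, 0.72 and 0.72), for Slc22a18 a pair of Cyp1a2 probes and AI182371 (0.68 to 0.75), and for Slc22a27 Ugt1a5, Dhrs7 and Cyp2b9 (0.69 to 0.78). For Slc22a26 they were Ugt1a7c, Serpina10 and Ces1c (0.61 to 0.66), and for Slc22a23 Prdx1, Slc6a13 and Acp5 (0.55 to 0.57). Slc22a30 and Slc22a5 had no feature above 0.44 and 0.37, the nearest being Jak1, 4931406P16Rik and Ywhae for Slc22a30 and Psmd11, Usp32 and Sult2a1 for Slc22a5. These ranks are descriptions over libraries that share depth, dose and scaling. With the log2 scaling factor of the library itself, rho was -0.45 for Slc22a28, -0.41 for Slc22a7 (probe Slc22a7_29397), -0.37 for Slc22a18 and -0.09 for Slc22a27. For genes without a call, it was -0.38 for Slc22a26 and -0.33 for Slc22a23. The value was 0.15 for Slc22a30 (probe Slc22a30_29879) and -0.05 for Slc22a5 (probe Slc22a5_65779).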

How the data were processed

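The deposited file holds read counts per probe, as whole numbers that the authors neither scaled nor logged, for 72 liver libraries. Per the submitters' processing notes, bcl2fastq 2.20 and Bowtie were used. The Bowtie version, counting tool and genome build are not given in the sources used here (the labels and the file's header). Each library's group is its labelled concentration and time. No batch or pairing is labelled, and replicates are numbered in listing order. Libraries under 100000 counts were left out (1 of 72). No pair within a group was a duplicate (0 of 280 identical, smallest chi-square per degree of freedom 5.60).

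In R 4.3.3, edgeR 4.0.16 was run on the 71 libraries with filterByExpr over the 8 groups (17050 of 30146 probes kept, all 12 Slc22 probes among them), TMM scaling, a robust quasi-likelihood fit with 1 mean per group and Benjamini-Hochberg adjustment over all features of a comparison at 0.05. CPM values are TMM-scaled. Standard errors are the log2 change divided by the square root of F. The probe with the highest mean count stands for a gene in counts of genes. Each dose was set against the control of its duration, so the 3 doses of a duration share their controls. Neighbouring doses were compared after the data had been seen. The script was tested on simulated data.

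Alternatives were DESeq2 1.42.0, limma 3.58.1 with quality weights, DESeq2 size factors, no robust estimation, no filter, a minimum mean of 5 CPM, TMM computed with the 20 most abundant features left out, the groups of a comparison alone, summed probes, a covariate for the log2 scaling factor, the failed library kept, dosed replicates 1 and 7 at 40 mg/mL for 14 d left out, each library left out in turn and, chosen after seeing the data, all libraries with scaling factors of 1.3 or above left out (8 of 71).

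The genes, lists and tests were chosen with earlier results of these data known. The rule for naming was every probe of the 8 genes, up to 3 called genes of each list at 40 mg/mL, and the 3 features most like each gene. Cell type markers of 8 types were summed. Outside hepatocytes, 1 of 5 tested stellate genes passed at 40 mg/mL for 14 d (Reln, log2 change -0.71, adjusted p = 0.0263 in edgeR). None of the 3 cholangiocyte, 4 Kupffer, 3 endothelial, 3 lymphocyte and 1 neutrophil markers tested did. Over all features 6.52% passed there, 3.68% as lower. With the scaling factor as a covariate, 0 stellate markers passed, where 3.26% of all features were called. Without the libraries with scaling factors of 1.3 or above, 0 passed as well, where 0.842% were called. No adipocyte marker passed the filter. Coordinates and promoters are RefSeq's for GRCm38.p6.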

Additional observations from a re-analysis of the deposited data

Results flagged for a closer look

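A single animal standing apart within its group was tested for 64 times (8 genes in 8 groups). The test was Dixon's ratio of the gap to the range, taken on log2 CPM, while the levels below are CPM. Of these tests 4 passed, all at the low end, where chance alone gives about 1 in 20. Slc22a7 (probe Slc22a7_29397) was low in replicate 2 at 10 mg/mL for 14 d, with 0.722 CPM beside a median of 16.1 CPM in the other animals of the group (ratio 0.514). The same animal had the lowest Slc22a18 value of its group, 8.74 CPM beside a median of 15.9 CPM (ratio 0.533). Slc22a7 was also low in replicate 9 at 20 mg/mL for 14 d, at 2.99 CPM beside 17.1 CPM (ratio 0.588). Slc22a28 was low in replicate 4 at 40 mg/mL for 28 d, at 0.0997 CPM (1 count) beside 4.27 CPM (ratio 0.516).

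The first of these libraries had a scaling factor of 1.26 and the lowest or joint lowest value of its group for 9 of the 12 probes, the second a factor of 1.26 and 6 of 12, and the third a factor of 0.977 and 3 of 12. All were kept, and the part of scaling in these values was not tested for single animals.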

How the results depend on the processing

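No paired analysis was possible because the labels give no replicate numbers that pair animals. At 20 mg/mL for 14 d the count of Slc22 genes called was 0, and 1 (Slc22a28) under DESeq2, limma, the 5 CPM filter, no robust estimation, summed probes and the scaling covariate, and 0 to 1 with 1 library left out (1 without control replicate 3 or dosed replicate 3, 4 or 7). At 40 mg/mL for 14 d it was 3, 2 under limma and the scaling covariate, and 1 without the libraries with scaling factors of 1.3 or above (Slc22a7), where 0.842% of all features were called. At 20 mg/mL for 28 d it was 1, and 0 under DESeq2 size factors, no filter, the scaling covariate, scaling without the 20 most abundant features and the failed library kept, and 0 to 1 with 1 library left out. At 40 mg/mL for 28 d it was 0, and 1 under DESeq2 and limma. The slope over doses called 3 genes at 14 d, 2 under limma and the scaling covariate, and 0 without the libraries with scaling factors of 1.3 or above. At 28 d it called 0, and 1 under limma, the 5 CPM filter, no robust estimation, summed probes and the scaling covariate, and 0 to 1 with 1 library left out. The 1 gene was Slc22a28 except under the covariate, where it was Slc22a27.

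Signs turned only in changes that had not passed. At 40 mg/mL for 14 d, Slc22a26 turned to 0.91 with the covariate and 0.18 without the libraries with factors of 1.3 or above, Slc22a23 to 0.054 with the covariate, probe Slc22a5_64145 to -0.029 with the failed library kept, probe Slc22a5_65779 to -0.20 in limma, -0.072 with the failed library kept and -0.0013 without the 20 most abundant features in the scaling, and probe Slc22a5_80069 to 0.39 without dosed replicates 1 and 7. Probe Slc22a5_80069 was at -1.72 without dosed replicate 2. Leaving out 1 library at a time also turned signs, to as far as -0.40 for Slc22a5_65779, -0.11 for Slc22a5_64145 and 0.29 for Slc22a5_80069. At 40 mg/mL for 28 d, probe Slc22a30_29879 turned to -0.038 with the covariate, Slc22a18 to -0.17 in limma, and probe Slc22a5_64145 was at -0.26 without dosed replicate 1. With other single libraries left out, signs turned to -0.15 for Slc22a18, -0.0071 for Slc22a30_29879, 0.0040 for Slc22a30_32069 and -0.0039 for Slc22a5_65779 at the furthest. probe Slc22a7_68976 lost its call at 40 mg/mL for 14 d with the groups of the comparison alone (adjusted p = 0.0729 in edgeR), and its slope without dosed replicate 1, 3, 8 or 9 (up to 0.0814). The causes were not tested. Depth limits Slc22a5, and the near copies on chromosome 19 limit what each probe counts. The labels name no source of batch.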
